A study of Homo sapiens with 30 samples.

Results

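The 10 genes described here are well-known transcriptional targets of the tumor suppressor p53. CDKN1A, PLK2 and BTG2 act in the control of cell division, and MDM2 is the ubiquitin ligase that degrades p53. FAS and BBC3 promote cell death. RRM2B, SESN1 and TP53I3 act in nucleotide supply and oxidative stress, and GDF15 is a secreted stress cytokine. The 10 genes were chosen by name as established p53 targets, with earlier results of these data known. They were matched by Ensembl identifier in the gene count tables. All 10 were found among the 60664 genes listed. Their levels and responses were compared between HCT116 cells, which have intact p53, and K562 cells, which lack functional p53.

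Poly(A) RNA-seq counts were available for 30 libraries in 10 groups of 3 cultures. Wild-type K562 (chronic myeloid leukemia) and HCT116 (colorectal carcinoma) cells received 10 µM of a DNMT1 inhibitor (DNMT1i), which blocks the enzyme that maintains DNA methylation, or 0.1% DMSO for 3 days. HT-CTCF cells, HCT116 cells in which CTCF carries a HaloTag, received DNMT1i (10 µM) or DMSO (0.1%) for 1 day, in each case with or without HaloPROTAC3, which drives degradation of the tagged CTCF protein. By the methods of the study, HaloPROTAC3 was added some hours before DNMT1i or DMSO and kept on during that day. The speckle line, K562 cells in which the scaffolds of nuclear speckles, SON and SRRM2, both carry a degron, was treated for 6 hr with dTAG-13 at 500 nM or with DMSO alone. The methods of the study describe the knock-in lines as derived from single-cell clones, so a difference in level between a knock-in line and its wild-type parent cannot be told apart from a difference between clones. No group carried a treatment given to damage DNA, and in bulk RNA fewer cells expressing a gene and less RNA per cell cannot be told apart.

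p53 is a transcription factor that is held at a low level by MDM2 and is stabilized by DNA damage and other stresses. It binds a DNA element made of a pair of 10-base repeats and raises transcription of nearby genes, among them MDM2 itself, which closes a negative feedback loop. CDKN1A encodes p21, an inhibitor of cyclin-dependent kinases, and cells with more p21 lower many genes of mitosis and DNA replication through the DREAM and RB complexes. Many p53 targets are also transcribed without p53, from the same or from other promoters.

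Each wild-type K562 library held between 16606855 and 20924381 counts assigned to genes, each wild-type HCT116 library between 17074791 and 21228534, each speckle line library between 16173008 and 20625817 and each HT-CTCF library between 4243092 and 9407430, so the HT-CTCF libraries were the shallowest. The third K562 DMSO library stood apart, since 888 genes were higher and 326 lower with DNMT1i over all 6 K562 libraries and 1941 and 1499 without it. All 5 erythroid markers (HBG1, HBG2, HBZ, GATA1, TAL1) were lower in HCT116 than in K562 cells, with summed levels of 2.46 to 3.80 and 262 to 336 counts for every 1000000 assigned (CPM) in DMSO. Of 6 epithelial markers (EPCAM, KRT8, KRT18, KRT19, CDH1, VIL1), 5 were higher in HCT116 cells, and VIL1 was near 0 there at 0.15 CPM.

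Promoter sequences are shown first, because start sites of MDM2 and SESN1 differed between the lines and because PLK2 and CDKN1A rose in K562 cells with DNMT1i. The RefSeq table of promoters (GRCh38.p14) held 16 start sites for 9 of the 10 genes, and RRM2B was not among them. Windows of 300 bases, from 250 before to 50 after each start, were searched for the p53 response element consensus. It consists of 2 adjoining 10-base repeats without a spacer and reads the same on both strands. Only the best match of each window was kept, so further matches in the same window are not listed. A 20-base match with at most 2 mismatches was found upstream of the downstream MDM2 start sites and of 1 FAS start site, and in 0.649% of all 35116 promoters in the table. At 3 mismatches, a match lay upstream of 1 SESN1 start site and just after the GDF15 start (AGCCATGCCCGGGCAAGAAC, chr19:18386186-18386205, plus strand), a limit that 5.2% of all promoters met. The best match in the other 11 windows had 4 or 5 mismatches. Sequence outside these windows was not searched, so a window without a match does not mean that the gene lacks an element. The 250 bases before the start are printed 5′ to 3′ on the strand of the gene. Capitals mark the best 20-base match where it had at most 3 mismatches, and any other match is left in lower case.
MDM2 upstream promoter, chr12:68807927-68808176, plus strand: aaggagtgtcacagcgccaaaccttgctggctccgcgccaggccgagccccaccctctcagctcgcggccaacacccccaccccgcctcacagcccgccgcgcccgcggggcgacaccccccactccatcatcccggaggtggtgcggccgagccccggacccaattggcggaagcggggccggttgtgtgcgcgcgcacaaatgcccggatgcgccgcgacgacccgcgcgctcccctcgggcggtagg
MDM2 downstream promoter, chr12:68808774-68809023, plus strand: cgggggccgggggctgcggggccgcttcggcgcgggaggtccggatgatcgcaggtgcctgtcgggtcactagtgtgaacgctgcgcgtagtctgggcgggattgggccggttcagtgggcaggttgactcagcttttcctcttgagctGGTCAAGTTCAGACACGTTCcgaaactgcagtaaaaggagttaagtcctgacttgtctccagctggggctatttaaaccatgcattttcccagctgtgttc
FAS, chr10:88991181-88991430, plus strand: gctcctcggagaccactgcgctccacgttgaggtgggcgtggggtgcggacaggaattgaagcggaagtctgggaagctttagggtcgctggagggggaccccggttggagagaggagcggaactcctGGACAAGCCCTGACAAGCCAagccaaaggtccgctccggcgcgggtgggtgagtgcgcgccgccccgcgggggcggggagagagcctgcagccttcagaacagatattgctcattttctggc
SESN1 inner promoter, chr6:109008989-109009238, minus strand: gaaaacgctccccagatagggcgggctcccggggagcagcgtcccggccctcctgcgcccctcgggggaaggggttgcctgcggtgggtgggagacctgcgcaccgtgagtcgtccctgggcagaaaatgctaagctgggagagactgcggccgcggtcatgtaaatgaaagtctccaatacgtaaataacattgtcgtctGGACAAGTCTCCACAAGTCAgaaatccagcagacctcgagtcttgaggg
SESN1 outer promoter, chr6:109094847-109095096, minus strand: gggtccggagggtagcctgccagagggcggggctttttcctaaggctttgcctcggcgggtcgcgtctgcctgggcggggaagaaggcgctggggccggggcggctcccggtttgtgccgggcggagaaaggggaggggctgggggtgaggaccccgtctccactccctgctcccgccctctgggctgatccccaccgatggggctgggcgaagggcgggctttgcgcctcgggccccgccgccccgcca
PLK2, chr5:58460087-58460336, minus strand: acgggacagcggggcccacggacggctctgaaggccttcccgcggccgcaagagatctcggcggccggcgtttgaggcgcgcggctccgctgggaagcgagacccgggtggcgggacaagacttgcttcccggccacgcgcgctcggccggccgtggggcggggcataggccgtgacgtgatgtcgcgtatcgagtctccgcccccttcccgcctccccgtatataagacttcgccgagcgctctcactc
CDKN1A, chr6:36678464-36678713, plus strand: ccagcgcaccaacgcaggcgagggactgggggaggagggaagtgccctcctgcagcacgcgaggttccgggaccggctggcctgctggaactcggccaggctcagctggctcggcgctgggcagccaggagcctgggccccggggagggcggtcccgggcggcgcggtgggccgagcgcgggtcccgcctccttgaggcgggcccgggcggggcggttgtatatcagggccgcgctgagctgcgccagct

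The match before the downstream MDM2 promoter (chr12:68808923-68808942) began 101 bases before the start site at chr12:68809024. The one at SESN1 (chr6:109009018-109009037) began 49 bases before the start at chr6:109008988. The FAS start with a match, chr10:88991431, lay past the FAS starts at chr10:88990798 and chr10:88990914, whose best matches had 5 mismatches. An exon piece just after chr10:88991431 (chr10:88991448-88991626) had 0 of 2663 FAS exon counts in HCT116 DMSO libraries and 1 of 2637 with DNMT1i. In the speckle line in DMSO that piece had 4 of 114. The PLK2 window held 40 CpG dinucleotides and the CDKN1A window 29. The median over all promoters in the table was 14, and 92.4% of them held fewer than PLK2. Members not called in K562 cells with DNMT1i had similar counts at the upstream MDM2 start (39), at 2 SESN1 starts (38 and 28) and at BTG2 (34). GDF15 (11), TP53I3 (9) and BBC3 (5) had fewer. A link between CpG count and response was not tested. CpG dinucleotides are the bases that DNMT1 keeps methylated, and methylation itself was not analysed here. A sequence match is a description of the letters and not evidence that p53 was bound.

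In untreated cells, 8 of the 10 genes were higher in HCT116 than in K562 cells and 1 was lower (edgeR quasi-likelihood test, adjusted p below 0.05), where 39.6% of 17237 genes tested were higher and 36.9% lower. The median log2 fold change of the 10 genes was 1.46, against 0.02 over all genes tested. The lines differ in tissue, genome and p53 status together, so these differences cannot be told apart by cause.

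PLK2, FAS and CDKN1A differed most between the lines. CDKN1A (chr6:36676460-36687337, plus strand, hg38 with GENCODE 44 for this and the following genes) was at 6.64, 5.69 and 7.05 CPM in the K562 DMSO libraries and at 162, 161 and 175 CPM in HCT116. The groups lay far apart, with a log2 fold change of 4.69 ± 0.11 (SE; edgeR adjusted p = 3.38e-18). PLK2 (chr5:58453982-58460139, minus strand), a Polo-like kinase, was nearly silent in K562 DMSO libraries at 0.335, 0.352 and 0.12 CPM (15 counts in all). It ranged from 127 to 158 CPM in HCT116, a log2 difference of 8.99 ± 0.20 (edgeR adjusted p = 9.08e-19). BTG2 (chr1:203305491-203309602, plus strand), an antiproliferative cofactor of mRNA deadenylation, had overlapping levels in both lines, from 26.3 to 30.0 CPM in K562 and from 24.5 to 28.0 CPM in HCT116 (log2 fold change -0.11 ± 0.10, edgeR adjusted p = 0.327).

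Both death genes were higher in HCT116, by very different amounts. FAS (chr10:88953813-89029605, plus strand), the death receptor at the cell surface, had 4 counts over the 3 K562 DMSO libraries and 1201 over the HCT116 ones, or 23.8, 21.7 and 21.5 CPM, a log2 difference of 8.15 ± 0.29 (edgeR adjusted p = 1.66e-15). BBC3 (chr19:47220822-47232766, minus strand), which encodes the BH3-only protein PUMA, was at 3.82, 4.92 and 6.20 CPM in K562 and at 8.59, 9.42 and 9.35 CPM in HCT116, 0.90 ± 0.20 higher on the log2 scale (edgeR adjusted p = 0.000461). FAS was near 0 in K562 RNA, while BBC3 was measured in every library of both lines.

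MDM2 (chr12:68808177-68845544, plus strand) was at 101, 97.1 and 65.6 CPM in K562 and at 209, 210 and 196 CPM in HCT116 in DMSO, 1.24 ± 0.12 higher (log2; edgeR adjusted p = 1.27e-08). GDF15 (chr19:18374731-18389176, plus strand) ranged from 67.6 to 87.7 CPM in K562 and from 222 to 266 CPM in HCT116, a log2 difference of 1.68 ± 0.12 (edgeR adjusted p = 1.74e-10). Both were therefore abundant in K562 cells. The third K562 DMSO library was the lowest for MDM2 and, at 49.6 CPM against 76.7 and 82.1, for RRM2B.

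Among the repair and redox genes, RRM2B (chr8:102204502-102238961, minus strand), the p53-inducible subunit of ribonucleotide reductase, was at 122, 124 and 120 CPM in HCT116, above every K562 DMSO library, with a log2 difference of 0.84 ± 0.13 (edgeR adjusted p = 9.72e-06). TP53I3 (chr2:24077433-24085861, minus strand), a quinone oxidoreductase, was low in both lines at 1.35 to 2.23 CPM in K562 and 5.62 to 6.46 CPM in HCT116 (log2 fold change 1.82 ± 0.20, edgeR adjusted p = 6.18e-08). SESN1 (chr6:108984309-109094846, minus strand), a leucine-sensing inhibitor of mTORC1, went the other way, with 18.2, 14.9 and 11.6 CPM in K562 and 10.9, 9.21 and 10.4 CPM in HCT116. It was lower in HCT116 by 0.54 on the log2 scale (-0.54 ± 0.16, edgeR adjusted p = 0.00476), the only member to be so. All 9 calls between the lines held under every alternative run, 17 for each gene. Of 32 other p53 targets 21 were higher in HCT116 and 6 lower (median log2 fold change 1.20), of 13 regulators of the pathway 4 and 4, and of 12 cell cycle genes that p21 lowers 1 and 8.

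**Figure D1:**
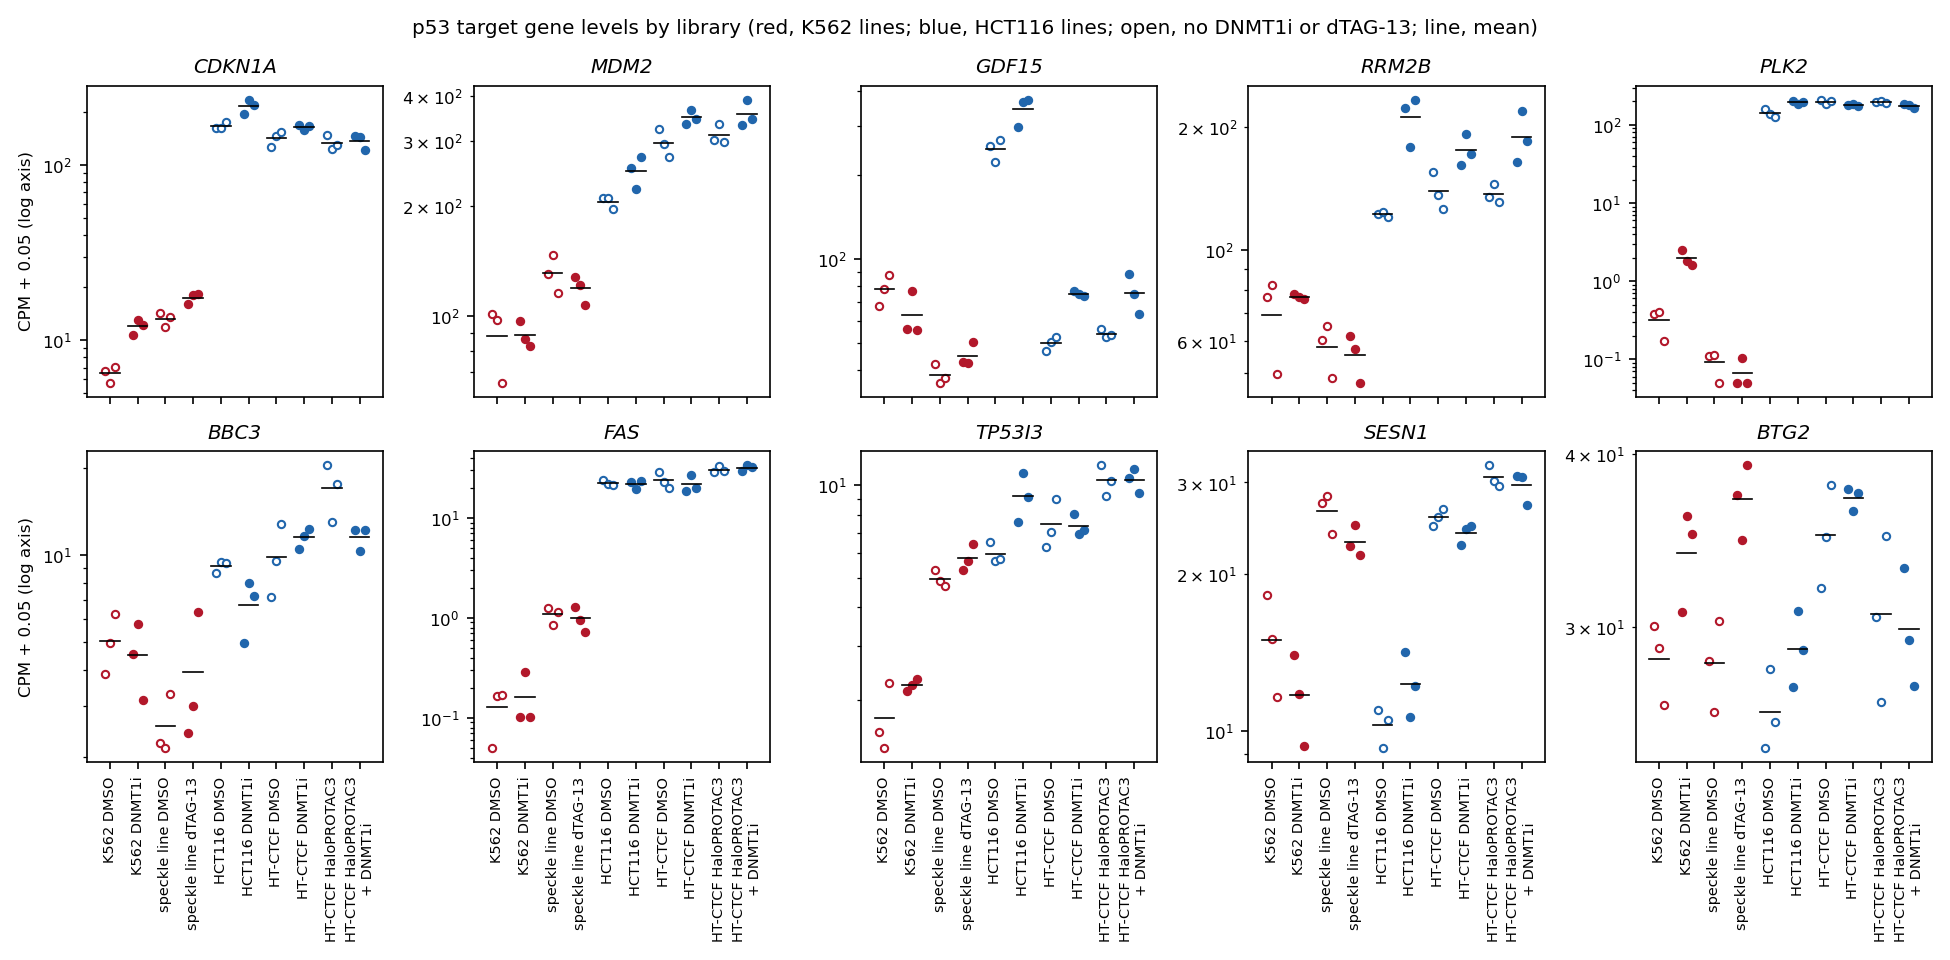
Levels (CPM) of the 10 genes in all 30 libraries (log axis, 0.05 added so that 0 can be drawn), with K562 lines in red and HCT116 lines in blue, open points for cultures without DNMT1i or dTAG-13 and a line at each group mean. CDKN1A, PLK2 and FAS sit far higher in every HCT116-derived library than in every K562-derived one, while BTG2 overlaps between the lines.

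Per kilobase of annotated exon, which allows genes to be compared within a group, GDF15 was the highest member in both wild-type lines, at 37.3 CPM per kb in K562 and 119 CPM per kb in HCT116 in DMSO. In HCT116 it was followed by CDKN1A (55.3 CPM per kb), PLK2 (30.4), MDM2 (26) and RRM2B (22.7), and BBC3 (2.93), TP53I3 (2.56) and SESN1 (1.99) were lowest. In K562, RRM2B (12.9), MDM2 (11.2) and BTG2 (10.3) came next, and CDKN1A at 2.16 CPM per kb was below SESN1 at 2.91. Exon length counts all annotated exons of a gene, so the order of close neighbors depends on which transcripts are made. In HT-CTCF cells in DMSO the order changed, with CDKN1A (47.3 CPM per kb), PLK2 (42.9) and MDM2 (37.8) above GDF15 (23.8).

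The knock-in lines had levels of their own. GDF15 was at 46.8, 50.2 and 52.3 CPM in HT-CTCF cells in DMSO, below all wild-type HCT116 libraries, and SESN1 at 24.7, 25.7 and 26.7 CPM, above them. The speckle line in DMSO had CDKN1A at 14.3, 11.9 and 13.5 CPM, SESN1 at 27.3, 28.2 and 23.8 CPM and TP53I3 at 5.25, 4.82 and 4.65 CPM, above the wild-type K562 DMSO libraries in each case. PLK2 had 2 counts in all there, and FAS, with 51 counts, was at 0.804 to 1.22 CPM. The knock-in lines were treated for other times and were not designed as a comparison with their parents, so no test is given.

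Counts in exon bins, the non-overlapping exon pieces of a flattened annotation, were available for wild-type and speckle libraries. Of 267 bins in the 10 genes, 165 could be tested between the lines in DMSO and 2 changed in usage relative to the rest of their gene (edgeR diffSpliceDGE, adjusted p below 0.05), where 2.6% of 202803 bins did. Both lie at alternative first exons, 1 in MDM2 and 1 in SESN1.

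MDM2 has 2 first exons. The upstream one (chr12:68808177-68808491, bins 1 to 6) follows the promoter that does not need p53, and the downstream one (chr12:68809024-68809086, bin 9, annotated as 5′ UTR of shorter transcripts and absent from the canonical one) follows the promoter in the first intron that is known to respond to p53. The downstream exon had 24, 43 and 33 counts in the HCT116 DMSO libraries and 1, 1 and 0 in the K562 ones. The upstream exon was counted in both lines, with 281, 481 and 334 counts in HCT116 and 209, 130 and 99 in K562 (a read that crosses bins counts in each).

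The downstream exon thus took 0.414 ± 0.092% of all MDM2 bin counts in HCT116 and 0.016 ± 0.015% in K562 (SD, n = 3). The usage difference was 4.18 on the log2 scale (edgeR diffSpliceDGE, adjusted p = 1.60e-05), and with only 2 counts in K562 the ratio of the pooled shares, 22, has a 95% exact counting interval of 5.93 to 184. As a share of first-exon counts alone it was 8.36 ± 0.58% in HCT116 DMSO libraries, 0.41 ± 0.39% in K562 and 0.94 ± 0.84% in the speckle line in DMSO, and the ranges of the HCT116 and K562 libraries did not overlap.

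With DNMT1i, the downstream exon had 54, 50 and 53 counts in HCT116 cells. Its share of first-exon counts was 13.2, 9.21 and 10.0% against 7.87, 8.21 and 8.99% in DMSO. Every treated library was thus above every control, at 10.8 ± 2.09% on average, with an exact two-sided permutation p = 0.10, the smallest that 3 libraries against 3 allow (0.20 adjusted over the 2 lines). Its usage relative to the whole gene differed by 0.25 on the log2 scale (edgeR diffSpliceDGE, adjusted p = 1.0). In K562 cells with DNMT1i it had 1, 0 and 1 counts, and the share of first-exon counts overlapped with that in DMSO (exact permutation p = 0.80).

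SESN1 also differed at a first exon. The first exon of its canonical transcript (chr6:109093969-109094819, bin 22, 5′ UTR and coding), behind the outer promoter printed above, took 10.3, 10.9 and 8.78% of SESN1 bin counts in K562 and 4.59, 3.83 and 3.24% in HCT116 in DMSO. No HCT116 library reached any K562 library, and usage was lower in HCT116 by 1.35 on the log2 scale (-1.35, edgeR diffSpliceDGE, adjusted p = 0.00357). The call was lost without K562 DMSO replicate 2 (adjusted p = 0.0524) or HCT116 DMSO replicate 3 (adjusted p = 0.0643), with log2 values of -1.30 and -1.23. An inner exon of shorter transcripts (chr6:109009359-109009555, bin 18) held 9, 12 and 7 counts in HCT116 and 3, 2 and 2 in K562, too few to be tested. That exon lies at another SESN1 start, chr6:109009552, whose best match had 5 mismatches and whose window is not printed. The exon directly behind the SESN1 start that carries the p53 element match had 0 counts in all 18 libraries.

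**Figure D2:**
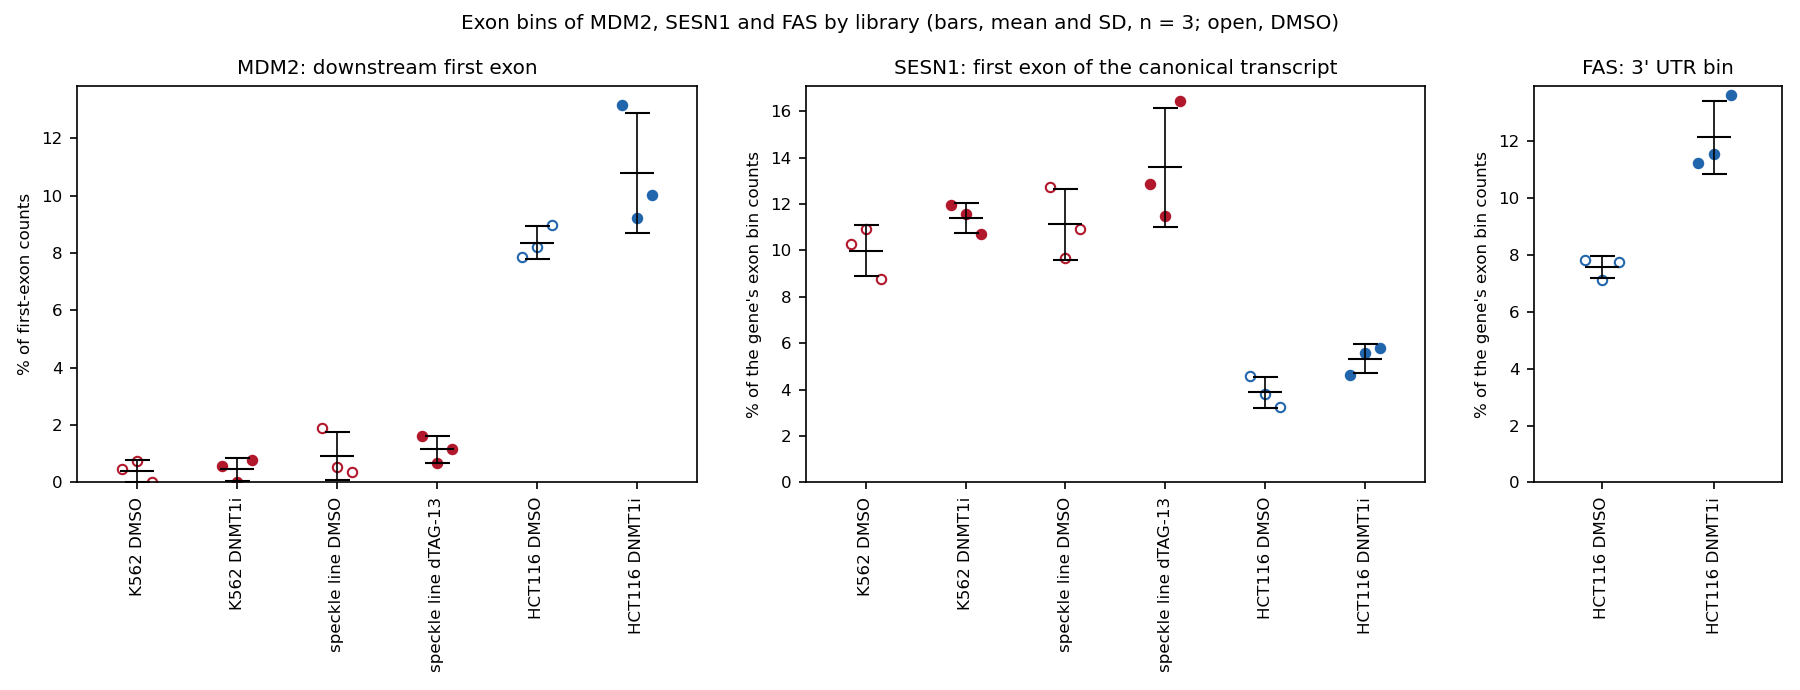
Share of counts by library for the downstream first exon of MDM2 (percent of first-exon counts), the canonical first exon of SESN1 and a 3′ UTR bin of FAS (percent of the gene's exon bin counts), with mean and SD of 3 libraries. MDM2 shares are 7.87% or more in HCT116 libraries and 1.90% or less in all K562-derived ones, and SESN1 shares run the opposite way.

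With 3 days of DNMT1i, 2 of the 9 genes that could be tested in K562 cells rose and none fell, where 6.47% of 13726 genes rose and 2.38% fell. Their median log2 fold change was 0.11, against -0.00 over all genes. FAS had too few counts to be tested, with 4 in DMSO and 6 in DNMT1i libraries.

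The 2 that rose were CDKN1A and PLK2, in cells without functional p53. CDKN1A went from 6.64, 5.69 and 7.05 CPM in DMSO to 10.7, 13.1 and 12.2 CPM, so that every treated library was above every control (log2 fold change 0.85 ± 0.14, edgeR adjusted p = 0.00319). PLK2 had 7, 6 and 2 counts in DMSO and 48, 30 and 31 with DNMT1i, or 1.58 to 2.45 CPM (log2 fold change 2.75 ± 0.36, edgeR adjusted p = 0.000525). Without the third K562 DMSO library the log2 fold changes were 0.92 for CDKN1A and 2.46 for PLK2, and both calls held under all 11 alternatives. Both stayed far under their HCT116 levels.

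Of the 6 epithelial markers, 3 also rose in K562 cells with DNMT1i, CDH1 (0.29 to 7.37 CPM), EPCAM and VIL1. KRT8 (log2 0.15), KRT18 (0.15) and KRT19 (-0.07) did not pass (edgeR adjusted p = 0.592, 0.531 and 0.844). The summed level of all 6 was 432 to 541 CPM in DMSO and 537 to 640 CPM with DNMT1i, ranges that overlap. Of 5 erythroid markers 1 rose, HBZ (0.85 ± 0.18, edgeR adjusted p = 0.0124), and none fell. A link between these markers and the members was not tested. KITLG, which encodes stem cell factor and was at 1144 CPM in HCT116 DMSO libraries (chosen here after its values were seen), stayed at 0.850 ± 0.103 and 0.924 ± 0.316 CPM in these K562 libraries. The other 7 members tested did not pass. SESN1 (-0.40 ± 0.17, edgeR adjusted p = 0.205) would pass without K562 DMSO replicate 3 (-0.54, adjusted p = 0.0131), and GDF15 at -0.35 ± 0.15 had adjusted p = 0.188.

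In HCT116 cells DNMT1i raised 5 of the 10 genes and lowered 1, in a response so broad that 33.8% of 15885 genes rose and 27.9% fell. The changes of the members were small, with a median log2 fold change of 0.22 against 0.02 over all genes.

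RRM2B rose most, from 122, 124 and 120 CPM to 222, 179 and 233 CPM (log2 fold change 0.69 ± 0.09, edgeR adjusted p = 2.58e-06). TP53I3 went from 6.46, 5.62 and 5.69 CPM to 7.55, 10.9 and 9.08 CPM (0.53 ± 0.14, edgeR adjusted p = 0.00294). Among stress and division genes, GDF15 rose from 222 to 266 CPM to 296 to 370 CPM (0.37 ± 0.08, edgeR adjusted p = 0.000841), PLK2 from 127 to 158 CPM to 185 to 203 CPM (0.37 ± 0.09, edgeR adjusted p = 0.00115) and CDKN1A from 162, 161 and 175 CPM to 193, 233 and 219 CPM (0.27 ± 0.08, edgeR adjusted p = 0.00399). In each of these 5 genes the treated and control libraries did not overlap. The share of all genes with such a separation was not counted, here or in the other comparisons.

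BBC3 fell, from 8.59, 9.42 and 9.35 CPM to 4.92, 7.96 and 7.16 CPM (-0.55 ± 0.15, edgeR adjusted p = 0.00315) and was the only member that was lower with DNMT1i and passed the test. MDM2 was at 254, 222 and 272 CPM against 209, 210 and 196 CPM, all treated libraries higher, but its log2 fold change of 0.18 ± 0.08 missed the threshold (edgeR adjusted p = 0.0755). It passed without HCT116 DNMT1i replicate 2 (0.27, adjusted p = 0.00236) and with scaling by library totals alone (0.28, adjusted p = 0.00488), a scaling that moves the median of all genes to 0.13. FAS (-0.14 ± 0.10), SESN1 (0.16 ± 0.13) and BTG2 (0.05 ± 0.09) did not pass.

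**Figure D3:**
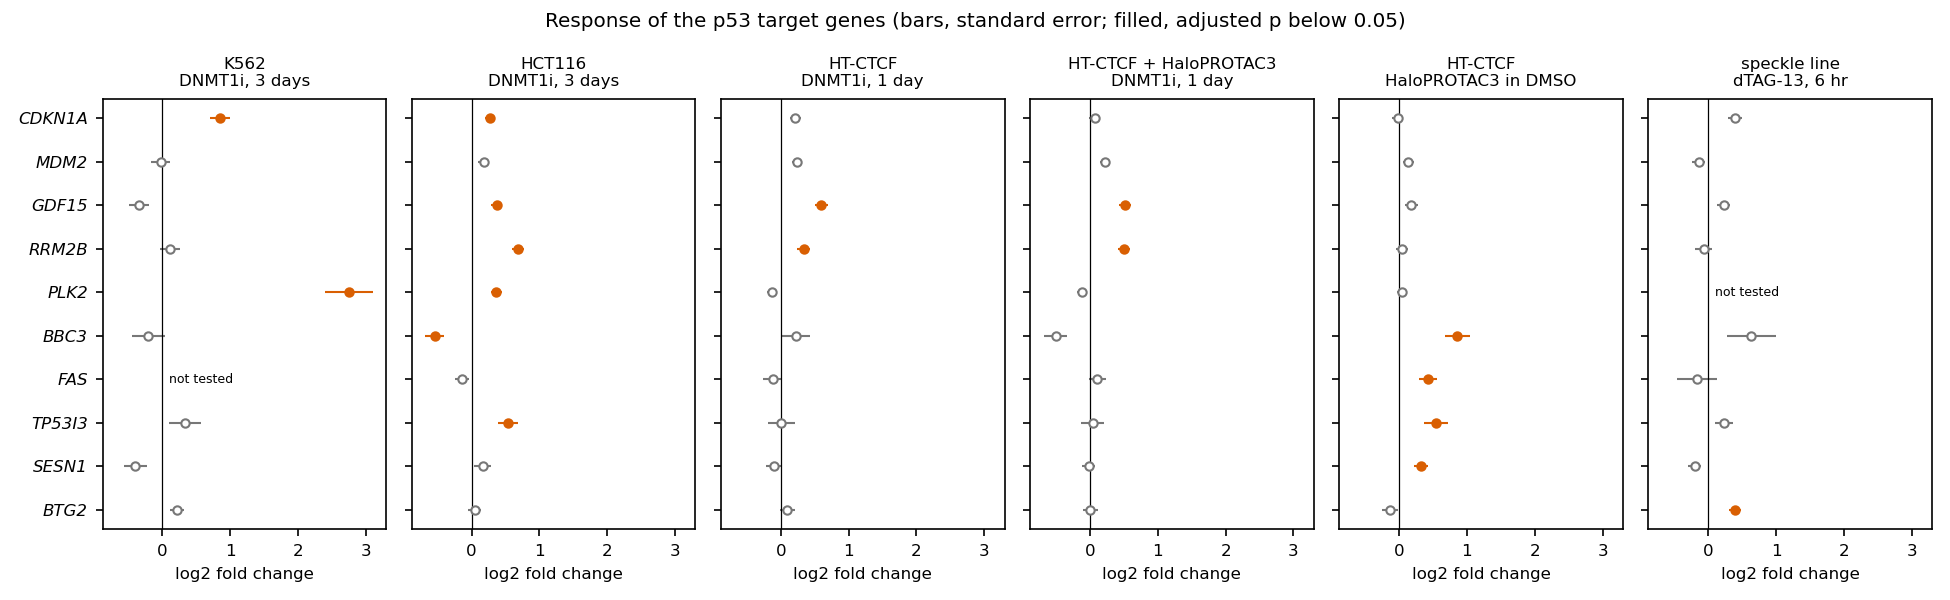
Log2 fold change of each gene with its standard error in 6 comparisons, filled where the adjusted p was below 0.05. CDKN1A and PLK2 rise in K562, 5 genes rise and BBC3 falls in HCT116, and RRM2B and GDF15 rise with DNMT1i in HT-CTCF cells with and without HaloPROTAC3. The RRM2B call without HaloPROTAC3 was lost with DESeq2.

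The difference of the responses was tested over the 12 wild-type libraries. It passed in 4 of 10 genes, with RRM2B and GDF15 responding more in HCT116 and PLK2 and CDKN1A less, where 15.7% of 17237 genes had a larger and 14.1% a smaller response in HCT116. The largest was PLK2, at -2.40 ± 0.35 (HCT116 minus K562, log2; edgeR adjusted p = 4.08e-05), followed by GDF15 at 0.71 ± 0.17 (edgeR adjusted p = 0.00383), CDKN1A at -0.59 ± 0.15 (edgeR adjusted p = 0.00542) and RRM2B at 0.57 ± 0.18 (edgeR adjusted p = 0.0253). PLK2 and CDKN1A had log2 responses that were larger in the line where they started lower. The RRM2B call was lost without any 1 of 6 libraries, K562 DNMT1i replicate 1, K562 DMSO replicates 1 and 2, HCT116 DNMT1i replicates 1 and 3 and HCT116 DMSO replicate 3 (adjusted p from 0.0509 to 0.0836), namely K562 DNMT1i replicate 1, K562 DMSO replicates 1 and 2, HCT116 DNMT1i replicates 1 and 3 and HCT116 DMSO replicate 3.

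Exon usage of the 10 genes changed in 1 bin with DNMT1i, in HCT116 cells. None of 101 bins tested changed in K562 (0 at an unadjusted p below 0.05, 0 with limma voom diffSplice), where 0.0492% of 186972 bins did, and 1 of 169 changed in HCT116, where 0.86% of 201926 did. That bin lies in the 3′ UTR of FAS (chr10:89014620-89014955, bin 40, in exon 9 of the canonical transcript) and took 7.82, 7.12 and 7.74% of FAS bin counts in DMSO and 11.2, 11.5 and 13.6% with DNMT1i (log2 usage 0.67, edgeR diffSpliceDGE, adjusted p = 0.0304). The shares did not overlap, but the call was lost without HCT116 DNMT1i replicate 1 or 3 or without any 1 DMSO replicate (adjusted p from 0.0668 to 0.486). FAS exon 6 (chr10:89010753-89010815), which encodes the transmembrane part and can be skipped to give a soluble receptor, held 3.80 ± 0.41% of counts with DNMT1i and 4.64 ± 0.61% in DMSO, a difference that did not pass (log2 -0.30, edgeR diffSpliceDGE, adjusted p = 1.0).

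The wider pathway was followed in 3 further lists. PPM1D is in both the other targets and the regulators, so the counts of these lists share it. Of 32 other p53 targets, 28 could be tested in K562 and none changed with DNMT1i (edgeR, 3 at an unadjusted p below 0.05; 0 with DESeq2). In HCT116, 13 of 31 rose and 11 fell, with a median log2 fold change of 0.15, beside the 33.8% and 27.9% of all genes given above. With scaling by library totals alone 14 rose and 6 fell.

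The largest rises in HCT116 were in SPATA18, a mitochondrial quality-control gene (11 counts in DMSO and 102 with DNMT1i, log2 fold change 2.98 ± 0.35), and EDA2R, a receptor of the TNF family (3 and 45 counts, a ratio of 14.1 with a 95% exact counting interval of 4.54 to 71.2). TIGAR, a regulator of glycolysis, rose by 1.71 ± 0.13 from 7.73 to 27.4 CPM on average, and TP53INP1, an autophagy and stress protein, by 0.80 ± 0.09 from 25.9 to 48.4 CPM (log2, edgeR adjusted p = 5.21e-10 and 1.87e-07). KITLG fell by 1.21 on the log2 scale, from 1144 ± 37.3 to 532 ± 43.1 CPM, CYFIP2, a regulator of actin, by 0.81, SESN2, a relative of SESN1, by 0.79 and GADD45A, a growth arrest gene, by 0.54. Over the 32 genes the response difference between lines was positive in 4 and negative in 3 that passed. Of the genes named here it passed for KITLG (-1.29 ± 0.29, edgeR adjusted p = 0.00216) and GADD45A (-0.70 ± 0.13, edgeR adjusted p = 0.00043). It did not pass for TIGAR (0.58 ± 0.47, edgeR adjusted p = 0.389), TP53INP1 (0.55 ± 0.26, edgeR adjusted p = 0.113), SPATA18, EDA2R, CYFIP2 or SESN2.

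Among 13 regulators of the pathway, 4 rose and 5 fell in HCT116 cells with DNMT1i, again beside 33.8% and 27.9% of all genes. The p53 relative TP63 had 3 counts in DMSO and 579 with DNMT1i, a ratio of 182 with a 95% exact counting interval of 62.0 to 885. Its response difference between lines did not pass (5.07 ± 2.54, HCT116 minus K562, log2, edgeR adjusted p = 0.145). The acetyltransferase EP300 rose by 0.65 ± 0.08 (log2, edgeR adjusted p = 2.92e-07). KAT5, the acetyltransferase TIP60, fell by 0.57 on the log2 scale (-0.57 ± 0.09, edgeR adjusted p = 1.53e-05). PPM1D, a phosphatase that is itself a p53 target and turns the response off, rose by 0.48 ± 0.08 (log2, edgeR adjusted p = 2.82e-05), and MDM4, the partner of MDM2, was at -0.09 ± 0.08 and did not pass. In K562, 1 of 11 rose, the checkpoint kinase CHEK2 (0.38 ± 0.10, edgeR adjusted p = 0.0405), and 1 fell, the p53 relative TP73 (-0.76 ± 0.20, edgeR adjusted p = 0.0413). The CHEK2 call held only without K562 DMSO replicate 3 among the 6 fits that leave out a library (adjusted p up to 0.217), and the TP73 call only without K562 DMSO replicate 1 or 3 (adjusted p up to 0.148).

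All 12 genes of division that p21 is known to lower fell in HCT116 cells with DNMT1i, where 27.9% of all genes fell. Their median log2 fold change was -0.77 (11 of 12 passed with scaling by library totals alone). FOXM1, a transcription factor of the G2 program, fell from 93.7 to 42.5 CPM on average (-1.24 ± 0.08), the mitotic kinase PLK1 changed by -1.14 ± 0.08 and the mitotic kinase AURKB by -1.10 ± 0.09 (edgeR adjusted p = 4.22e-11, 2.07e-10 and 1.04e-09). In K562, 1 of 12 fell, where 2.38% of all genes did, and the median was -0.13. The gene was CCNA2, which encodes cyclin A2 (-0.34 ± 0.08, edgeR adjusted p = 0.0336). With scaling by library totals alone none passed in K562. The CCNA2 call, too, held only without K562 DMSO replicate 3 (adjusted p up to 0.145 without another library). The difference between lines passed in 8 of the 12, each with the lower value in HCT116. It also passed in 6 of the 13 regulators (3 higher and 3 lower in HCT116, or 3 and 0 with scaling by library totals alone). Over all genes tested, 15.7% had a larger and 14.1% a smaller response in HCT116. CDKN1A rose in both lines, and a link between its rise and these cell cycle genes was not tested.

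**Figure D4:**
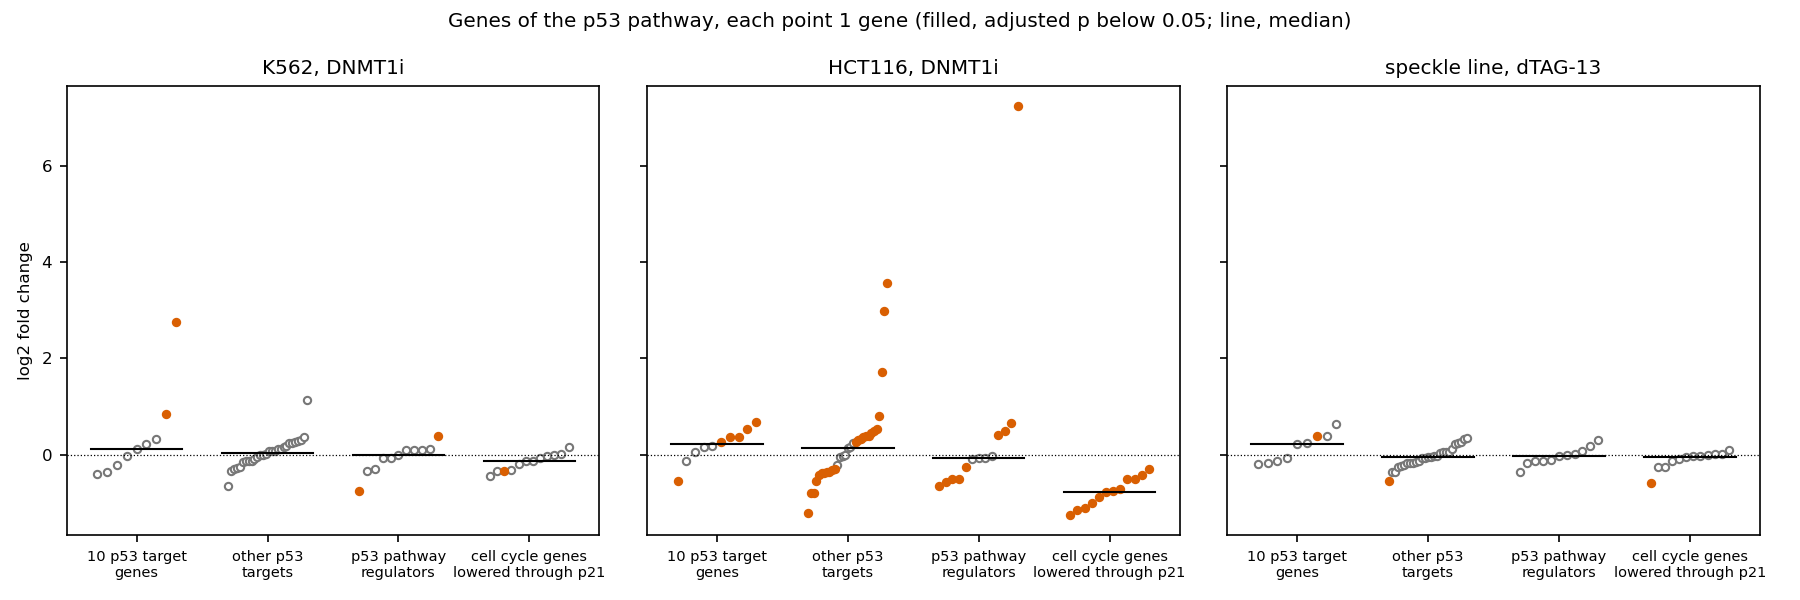
Log2 fold changes of the 10 genes, other p53 targets, pathway regulators and cell cycle genes in 3 comparisons, 1 point per gene, filled where the adjusted p was below 0.05, with the list median as a line. All 12 cell cycle genes are filled and below 0 in HCT116 cells with DNMT1i, where 27.9% of all genes fell. Their median is -0.77 (11 pass with scaling by library totals alone), and most points of K562 cells and the speckle line are open.

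In HT-CTCF cells, 1 day of DNMT1i raised 2 of the 10 genes and lowered none, where 1.98% of 12690 genes rose and 0.504% fell. The 2 were GDF15, from 46.8, 50.2 and 52.3 CPM to 76.6, 74.7 and 73.8 CPM (0.60 ± 0.10, edgeR adjusted p = 0.000199), and RRM2B, from 155, 136 and 126 CPM to 162, 192 and 172 CPM (0.34 ± 0.09, edgeR adjusted p = 0.0448). Treated libraries were above all controls in both. The RRM2B call was lost without any 1 of 7 libraries, HaloPROTAC3 DMSO replicates 1 and 3, DNMT1i replicates 1, 2 and 3 and DMSO replicates 2 and 3 (adjusted p from 0.0505 to 0.229). It was also lost with DESeq2 and with scaling by library totals alone. MDM2, at 335 to 366 against 271 to 325 CPM, had a log2 fold change of 0.24 ± 0.08 (edgeR adjusted p = 0.0955), and passed without DMSO replicate 1 (0.31, adjusted p = 0.0264).

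With HaloPROTAC3 on board, DNMT1i raised the same 2 genes, where 2.86% of genes rose and 2.55% fell. GDF15 went from 56.2, 52.4 and 53.2 CPM to 88.4, 75.0 and 63.4 CPM (0.52 ± 0.09, edgeR adjusted p = 0.000578) and RRM2B from 135, 145 and 131 CPM to 164, 218 and 185 CPM (0.51 ± 0.09, edgeR adjusted p = 0.000609). The DNMT1i response did not differ detectably with HaloPROTAC3 in any of the 10 genes (0 called by edgeR, 1 at an unadjusted p below 0.05, and 0 of the 4 to which DESeq2 gave an adjusted p), where 0.0552% of genes had a larger and 0.213% a smaller response. Its difference was 0.17 ± 0.13 for RRM2B and -0.08 ± 0.13 for GDF15 on the log2 scale, with BBC3 at -0.73 ± 0.27 (edgeR adjusted p = 0.219).

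HaloPROTAC3 alone raised 4 other members, where 10.1% of genes rose and 7.28% fell. BBC3 went from 7.08, 9.45 and 12.7 CPM to 20.3, 13 and 17.6 CPM (0.86 ± 0.18, edgeR adjusted p = 0.000971), and no library overlapped. TP53I3 (0.55 ± 0.18), FAS (0.43 ± 0.13) and SESN1 (0.32 ± 0.11) passed by less (edgeR adjusted p = 0.0321, 0.0238 and 0.0322), and all 3 calls were lost with DESeq2 (adjusted p = 0.119, 0.0616 and 0.0973). The TP53I3 call was also lost without HaloPROTAC3 DMSO replicate 1 or 3 or DMSO replicate 1 or 2 (adjusted p up to 0.148), the FAS call without HaloPROTAC3 DMSO replicate 2 or DMSO replicate 2 or 3 (up to 0.148) and the SESN1 call without any 1 of these 6 libraries (up to 0.131). CDKN1A (-0.02 ± 0.08), PLK2 (0.04 ± 0.07) and RRM2B (0.04 ± 0.09) had log2 values near 0.

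Around them, KITLG fell with DNMT1i alone (-0.41 ± 0.08, edgeR adjusted p = 0.00153), the single call among 29 other targets. With HaloPROTAC3 on board 4 of 29 rose, among them TP53INP1 (0.41 ± 0.11) and RPS27L, a ribosomal protein gene (0.34 ± 0.08). HaloPROTAC3 in DMSO raised TP53INP1 (0.49 ± 0.12) and PERP, a junction protein gene (0.28 ± 0.07), and lowered PMAIP1, which encodes NOXA (-0.43 ± 0.09), and DRAM1, an autophagy gene (-0.37 ± 0.12). Of 12 cell cycle genes, 3 fell with HaloPROTAC3 in DMSO (8 with scaling by library totals alone), CCNA2 (-0.38 ± 0.07), CDK1 (-0.35 ± 0.08) and PLK1 (-0.21 ± 0.07). Of 12 regulators tested, the kinase HIPK2, which phosphorylates p53, rose with HaloPROTAC3 in DMSO (0.71 ± 0.10) together with EP300 (0.42 ± 0.10) and the damage kinase ATM (0.40 ± 0.13). With HaloPROTAC3 on board, DNMT1i lowered HIPK2 (-0.55 ± 0.10) and EP300 (-0.35 ± 0.10), a comparison that shares its HaloPROTAC3 DMSO libraries with the one before. DNMT1i alone changed none of the 12 regulators or 12 cell cycle genes (edgeR, 1 of each at an unadjusted p below 0.05; 0 of each with DESeq2), and it shares its DMSO libraries with the comparison of HaloPROTAC3 alone. The DNMT1i response differed with HaloPROTAC3 in 0 of 29 other targets (edgeR, 5 at an unadjusted p below 0.05; 1 of the 6 to which DESeq2 gave an adjusted p) and in 1 regulator, HIPK2 (-0.65 ± 0.14, edgeR adjusted p = 0.0374). The HIPK2 call was lost without any 1 of 8 libraries, HaloPROTAC3 DNMT1i replicates 2 and 3, HaloPROTAC3 DMSO replicates 2 and 3, DNMT1i replicates 1 and 2 and DMSO replicates 1 and 2 (adjusted p from 0.0544 to 0.186).

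In the speckle line, 6 hr of dTAG-13 raised 1 of the 9 genes tested, where 1.57% of 14104 genes rose and 3.09% fell, and the members' median log2 fold change was 0.23 against -0.01 over all genes. BTG2 went from 28.3, 26 and 30.3 CPM to 37.3, 34.6 and 39.2 CPM (0.39 ± 0.09, edgeR adjusted p = 0.0348), with no overlap. CDKN1A went from 14.3, 11.9 and 13.5 CPM to 16, 18 and 18.3 CPM, also without overlap, and missed the threshold (0.39 ± 0.11, edgeR adjusted p = 0.0684). PLK2, at 2 counts in DMSO and 1 with dTAG-13, could not be tested.

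Same-numbered speckle libraries had positively correlated deviations (r of 0.20, 0.53 and 0.80), but a pair with different numbers reached 0.70. With the replicate number as a block, 4 of the 9 genes rose and 1 fell, where 8.33% of all genes rose and 13.4% fell. BTG2 (0.39 ± 0.07, edgeR adjusted p = 5.38e-05), CDKN1A (0.40 ± 0.09, adjusted p = 0.00198), GDF15 (0.23 ± 0.07, adjusted p = 0.0184) and BBC3 (0.61 ± 0.18, adjusted p = 0.0125) were higher in that blocked fit and SESN1 was lower (-0.20 ± 0.07, adjusted p = 0.0498). Without the block, the BTG2 call was lost without dTAG-13 replicate 1 or 2 or DMSO replicate 1 or 2 (adjusted p from 0.0911 to 0.150). None of 108 exon bins of the members changed (edgeR, 7 at an unadjusted p below 0.05; 0 with limma voom diffSplice), where 0.131% of 184300 bins did, and none with the block (19 at an unadjusted p below 0.05), where 0.724% of bins did. Of the other p53 targets 1 changed without the block, TNFRSF10A, a TRAIL receptor (-0.55 ± 0.08, edgeR adjusted p = 0.00646, 1 of 27; 0.0510 without dTAG-13 replicate 2), and of the cell cycle genes AURKB (-0.59 ± 0.09, edgeR adjusted p = 0.00509, 1 of 12). None of 11 regulators passed (edgeR, 5 at an unadjusted p below 0.05; 1 higher and 1 lower with DESeq2). With the block, 3 of 27 other targets rose and 3 fell, 4 of 12 cell cycle genes fell, and 2 of 11 regulators rose and 2 fell, shares to be read against the 8.33% and 13.4% of all genes. TNFRSF10A (-0.55 ± 0.07, adjusted p = 1.12e-06) and AURKB (-0.59 ± 0.06, adjusted p = 3.86e-08) passed in that fit too.

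Across the 10 group means of log2 CPM, the genes whose pattern was most like that of CDKN1A among 12644 were ROBO3 (Pearson r = 0.996), S100A6 (0.995), VPS4B (0.994), CDON (0.994) and BCL9L (0.994). All 5 were higher in HCT116 than in K562 cells in DMSO, S100A6 at 1037 against 1.49 CPM, and the 10 points fall into separate sets of K562 and HCT116 groups, so r describes the gap between the lines more than the treatments. Among the members r with CDKN1A was highest for FAS (0.98) and PLK2 (0.96) and lowest for SESN1 (0.13) and BTG2 (-0.03).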

How the data were processed

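Poly(A)-selected RNA of 30 cultures, 10 groups of 3, was sequenced after library preparation with unique molecular identifiers. The authors deposited whole-number gene counts (60664 genes) per library and, for 18 libraries, counts per exon bin (652720 bins). Submitters' processing notes name UMI-tools 1.1.1, cutadapt 2.7, STAR 2.6.0, HTSeq, DESeq2 1.28 and R 4.0.2, with the hg38 build. Whether strand was used in counting is not stated in these sources. The other deposited columns are positions and identifiers of features. Deposited comparison tables hold log2 fold changes and p-values and were not used, nor were their 18 columns of per-sample values. Reads assigned to no gene, 17.1 to 23.6% of each library, were left out.

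Counts were fitted with edgeR 4.0.16 in R 4.3.3 (TMM scaling, filterByExpr, quasi-likelihood test) in 1 fit for the wild-type lines together where lines were compared, each line alone for its own DNMT1i response, 1 for the speckle line and 1 for the 4 HT-CTCF groups. P-values were adjusted by Benjamini-Hochberg over all genes, a call needs an adjusted p below 0.05, and SE is the log2 fold change over the root of F. CPM is the count divided by all counts assigned to genes, times 1000000. Exon bins were tested with edgeR diffSpliceDGE for usage relative to the gene, and no SE is given. Alternatives used DESeq2 1.42.0, RLE size factors, library totals only, no low count filter, the study's thresholds on size (log2 0.5, or 0.25 for the speckle line), each library left out, the replicate number as a block, and for bins limma 3.58.1 or a mean count of at least 20. Both tests were checked on simulated data. Intervals of count ratios are exact at 95% and cover counting error only.

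The members and the gene lists were chosen with earlier results of these data known. Named are the members, MDM4 and PPM1D, in each comparison up to 4 other targets each way with the largest called changes (2 in HT-CTCF cells), up to 3 regulators and 3 cell cycle genes with the smallest called p, the member bins with the smallest p (at most 2 a gene) and the 5 genes most correlated with CDKN1A over group means of log2(CPM + 0.5). FAS exon 6, the inner SESN1 bins and values of a named gene in another comparison were added after values were seen. Of the genes fixed by these rules and lists, 2 are not reported here and are left out of the list counts. The labels describe separate cultures, so p-values measure the spread between cultures of 1 line. No pair of libraries agreed within sampling noise (smallest chi-square per degree of freedom 1.79). Same-numbered speckle libraries had correlations of 0.20, 0.53 and 0.80 between their deviations from group means. A pair with different numbers reached 0.70, so these values do not single out the replicate number as a pairing. Blocked values are given beside the speckle results as an alternative.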

Additional observations from a re-analysis of the deposited data

Results flagged for a closer look

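The DNMT1i response differed between the wild-type lines, by the test of the difference itself over 12 libraries (HCT116 minus K562, log2; edgeR quasi-likelihood test with Benjamini-Hochberg adjustment), for 5 of the genes followed throughout. CDKN1A had a difference of -0.59 (adjusted p = 0.00542), with responses of 0.27 in HCT116 and 0.85 in K562. For PLK2 the difference was -2.40 (adjusted p = 4.08e-05), and it rests on 15 counts in K562 DMSO and 109 with DNMT1i. GDF15 (0.71, adjusted p = 0.00383) had responses of 0.37 in HCT116 and -0.35 in K562, of which only the former passed. RRM2B differed by 0.57 (adjusted p = 0.0253), with a response of 0.69 in HCT116. For PPM1D the value was 0.36 (adjusted p = 0.0396). In HT-CTCF cells, HIPK2 had a DNMT1i response that was lower with HaloPROTAC3 than without it by 0.65 on the log2 scale (-0.65, edgeR adjusted p = 0.0374), a call lost without any 1 of 8 libraries (adjusted p from 0.0544 to 0.186).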

How the results depend on the processing

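Of 22 counts of called members or exon bins, 12 stayed within 1.5 times under every alternative, and of 88 member values 70 kept their side of the p threshold in every refit (other tools, scalings, filters, the block and each library left out). Of 30 called values 24 kept the call in every refit, and the exceptions are named in the report. The study's size threshold, which is no refit, would remove 6 of the 30 calls and leave 21 that also held in every refit. No called value changed sign. For the other counts the cause was not tested. Without a low count filter, members called were 1 lower in K562, 3 higher in the speckle line, 1 lower with DNMT1i beside HaloPROTAC3 and 2 higher with HaloPROTAC3 alone. With the size threshold, 2 were higher in HCT116, 1 with DNMT1i in HT-CTCF cells and 2 with HaloPROTAC3. DESeq2 and library totals only each left 1 higher with DNMT1i and 1 with HaloPROTAC3 in HT-CTCF cells. Between the lines, limma called 9 exon bins, and a mean count of at least 20 left 1, since the MDM2 bin was then not tested. Leaving out 1 library gave 0 to 1 members lower in K562 (1 without DMSO replicate 3), 0 to 1 higher in the speckle line, 1 to 4 with a larger response in HCT116 (4 without K562 DMSO replicate 3), 1 to 3 higher with DNMT1i in HT-CTCF cells, 0 to 1 lower with DNMT1i beside HaloPROTAC3, 1 to 4 higher with HaloPROTAC3, 0 to 6 exon bins in HCT116 (6 without DNMT1i replicate 2) and 1 to 9 between lines (9 without K562 DMSO replicate 3).

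With the replicate number as a block, the speckle line had 4 members higher and 1 lower, and 1175 genes higher and 1886 lower in place of 222 and 436. The block ended the RRM2B call on the response difference (adjusted p = 0.0566) and made that of SESN1 (adjusted p = 0.0286), and changed no other member call. Pairing of same-numbered libraries was not established in any group, and outside the speckle line at least 1 correlation of each set was negative. Scaling by library totals gave 6307 genes higher and 3265 lower in place of 5365 and 4426 in HCT116, 248 and 502 in place of 363 and 324 with DNMT1i beside HaloPROTAC3, and 918 and 1505 in place of 1276 and 924 with HaloPROTAC3. For the HaloPROTAC3 effect on the DNMT1i response DESeq2 called 60 genes higher and 83 lower in place of 7 and 27. HT-CTCF libraries were the shallowest, and FAS and PLK2 in K562-derived cells are limited by their counts.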
